A study of Homo sapiens with 4 samples.

Results

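The leukocyte immunoglobulin-like receptor cluster was taken as 10 genes of human chromosome 19, namely LILRB1, LILRB2, LILRB3, LILRB4, LILRB5, LILRA1, LILRA2, LILRA5, LILRA6 and LAIR1. They were chosen by family and position, not by their values, and are 10 of 19884 protein-coding genes placed on the chromosomes of the RefSeq GRCh38.p14 annotation and 10 of 1410 on chromosome 19. H3K27Ac, an acetylated histone mark of active promoters and enhancers, was profiled by ChIPmentation, a chromatin immunoprecipitation in which the Tn5 enzyme adds the sequencing adapters. The cells were MOLM13, a cultured human AML line with MLL1-r (a rearranged MLL1 gene, here fused to AF9) that also carries an internal tandem duplication of FLT3. One group was the control, whose label names no treatment while the treatment description names DMSO, and the other was treated with 500 nM of SNDX-50469, a Menin inhibitor, for 16 h. Each group had 1 library, so no difference between the groups could be tested, and every value below describes these libraries. Both groups share the cell line, which is a single line in culture, and files of the 2 input samples were not used here.

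LILR proteins are paired receptors of myeloid and lymphoid cells that lie side by side in the leukocyte receptor complex. The LILRB members carry ITIM motifs in their cytoplasmic tails, which recruit phosphatases and dampen activation. Most LILRA members have short tails and signal through the ITAM adaptor FCER1G. LAIR1, a related inhibitory receptor for collagen, sits in the same cluster. LILRB4 marks monocytic AML cells and has been followed as a target on them, and for that reason it is set against the other members here.

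The 250 bases before an annotated RefSeq start site are shown for the 3 members at which H3K27Ac occupancy was found in both libraries at the same bases, and for LILRB3, whose promoter carried no peak in either library although it resembles that of LILRB4. They are from the GRCh38.p14 promoter table and are printed 5′ to 3′ on the strand of the gene. Capitals mark matches to the searched motifs. LILRB4 lies at chr19:54662735-54662984 on the plus strand, LILRA2 at chr19:54573540-54573789 on the plus strand, LAIR1 at chr19:54364932-54365181 on the minus strand and LILRB3 at chr19:54223008-54223257 on the minus strand. The LILRA2 and LAIR1 windows lie inside the outermost ends of their genes, because both genes have several starts.
LILRB4: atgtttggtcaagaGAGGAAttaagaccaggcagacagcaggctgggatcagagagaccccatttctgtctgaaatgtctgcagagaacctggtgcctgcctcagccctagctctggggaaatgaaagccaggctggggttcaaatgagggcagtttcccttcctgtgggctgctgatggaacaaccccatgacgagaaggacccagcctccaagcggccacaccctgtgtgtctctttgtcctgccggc
LILRA2: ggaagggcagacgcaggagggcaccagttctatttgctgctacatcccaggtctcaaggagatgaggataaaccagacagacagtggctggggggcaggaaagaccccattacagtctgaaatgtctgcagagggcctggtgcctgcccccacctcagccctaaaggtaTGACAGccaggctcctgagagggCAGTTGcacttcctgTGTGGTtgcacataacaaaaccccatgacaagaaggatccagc
LAIR1: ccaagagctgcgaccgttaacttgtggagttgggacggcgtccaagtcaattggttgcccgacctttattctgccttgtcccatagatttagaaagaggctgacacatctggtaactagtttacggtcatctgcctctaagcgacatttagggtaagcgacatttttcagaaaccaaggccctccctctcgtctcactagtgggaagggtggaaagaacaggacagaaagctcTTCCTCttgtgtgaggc
LILRB3: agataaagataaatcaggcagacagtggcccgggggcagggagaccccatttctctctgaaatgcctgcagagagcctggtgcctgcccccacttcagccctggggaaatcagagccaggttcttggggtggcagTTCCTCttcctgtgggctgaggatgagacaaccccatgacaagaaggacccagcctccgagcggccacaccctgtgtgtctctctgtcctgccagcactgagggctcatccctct

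All 250 bases of the LILRB4 window lay in a peak in control and after SNDX-50469, and so did all 250 bases of the LILRA2 and LAIR1 windows. None of the LILRB3 window did in either library. Over an alignment of the windows, LILRB3 and LILRB4 were identical at 72.6% of positions, and LILRB4 and a second LILRA2 window (start site 54573831) at 74.8%. The closest pairs were LILRB1 (start site 54630484) and LILRA1 with 94.4%, LILRB1 and LILRB2 with 90.5%, and LILRB2 and LILRA1 with 90.4%, and no base of these windows was covered in either library. Reads can be hard to place between windows this alike. The table held 16 start sites for 9 of the 10 members and none for LILRA6. A second LAIR1 start (54370558) had 103 of 250 bases covered in control and none after treatment. LILRB1 had 1 of 3 starts (54617129) covered over 250 bases in control, and none after treatment. The starts of LILRB2, LILRB5, LILRA1 and LILRA5 had no covered base in either library.

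The motif GAGGAA, the core bound by ETS factors such as PU.1, occurred on either strand in 5 of the 16 windows, and in 23.6% of all 35097 windows of the table. In LILRB4 it began 236 bases before the start, in LAIR1 17 and in LILRB3 115. TGTGGT, a RUNX core, was in 3 of 16 windows (11.0% of all), CAACNG, a MYB core, in 3 (26.97%), TGACAG, a MEIS core, in 3 (13.0%) and TTGCNNAA, a C/EBP core, in 1 (9.05%). TATAAA was in 0 (10.7% of all). The RUNX, MYB and MEIS letters stood together in the LILRA2 window, at 43, 58 and 81 bases before the start, and the second LILRA2 window holds the same 3 matches because the windows overlap. In LILRA5 the C/EBP match overlaps a MYB match. These are matches of letters, and none was tested for binding.

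A length in bp is given below for each gene with 5 kb on both sides. Covered length is the part inside a peak of the deposited list, and kept length is the part of it in control that SNDX-50469 peaks also covered. What served as background in peak calling, input included, is not given in the sources used here, and the lists carry no scaling between libraries. Fold over background, −log10 q and rank are therefore read only within a list (rank 1 is the highest fold). The control list held 245875 peaks and the SNDX-50469 list 54061, which covered 224 and 29.4 Mb. The smallest −log10 p was 2.68 in control and 3.93 after treatment, so the lists also differ in how weak a peak they admit. Read depth is unknown, because the lists hold no read counts.

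The label of a myeloid line was checked against marker genes. All 10 myeloid markers had a control peak and 9 had one after treatment, where 78.5% and 52.4% of all protein-coding genes did. Their median control covered length was 24266 bp. All 4 T cell, all 4 B cell and all 4 NK cell markers had a control peak too, so its presence did not separate these cell types. The T cell markers had a median of 5388.5 bp in control, and 0 of 4 had a peak after treatment. B cell markers had a median of 7199 bp and NK cell markers of 6191 bp, and 3 of 4 and 1 of 4 had a peak after treatment. The B cell marker CD79A had 12129 bp in control and kept 47.1% of it. Of 3 epithelial markers 2 had a control peak and 1 had one after treatment, with a median of 4342 bp in control. EPCAM had no peak in either library and KRT8 had 4342 bp in control only. CDH1 had 18346 bp in control and 636 bp after treatment, so long control coverage was not limited to myeloid markers.

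Over the whole cluster, from 54211278 to 54673718 (462441 bp), H3K27Ac peaks covered 135523 bp in control and 25108 bp following SNDX-50469 treatment. The number of peaks was 156 against 27. The kept length was 22975 bp, or 17.0% of the control covered length. Of the 156 control peaks 18 overlapped a SNDX-50469 peak by 1 bp or more (11.5%, Wilson 95% interval 7.42 to 17.5, which covers counting error only), against 8.24% of all control peaks. The peaks that remained were grouped at LAIR1, at LENG8 and LENG9, at LILRA2 and upstream of LILRB4. The stretch from LILRB3 to LAIR1 kept 22.2%, the stretch between LAIR1 and LILRA2 kept 14.3%, and the stretch from LILRA2 to LILRB4 kept 12.4%. With control peaks limited to a −log10 p of 3.93 or higher, as in the SNDX-50469 list, the kept share of the cluster was 25.9%.

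**Figure D1:**
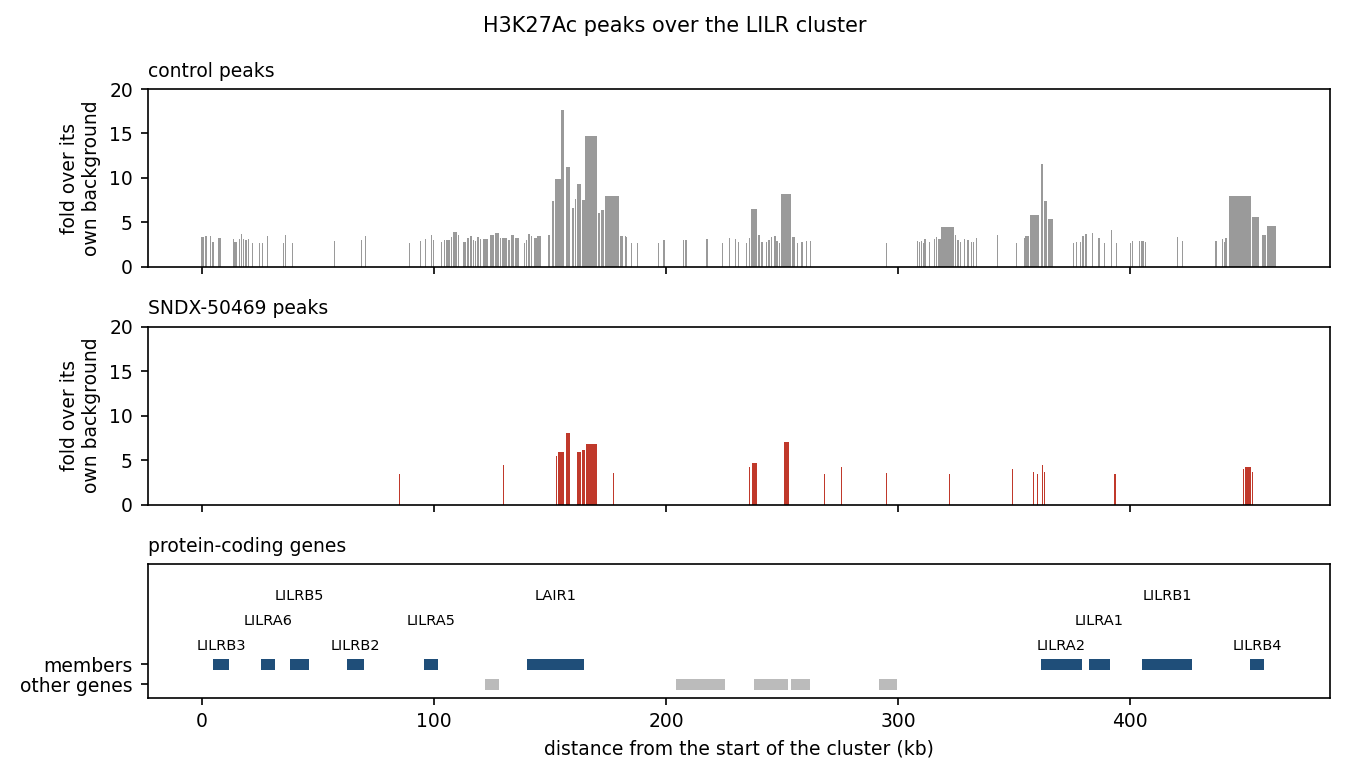
H3K27Ac peaks over the cluster in control (upper) and after SNDX-50469 (middle), with members and other protein-coding genes (lower). The x axis is the distance in kb from the start of the cluster and the y axis the fold over background as each list gives it, so heights are not comparable between the upper panels. Of 156 control peaks and 27 SNDX-50469 peaks, the highest in each list lie at LAIR1.

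All 10 members had a control peak, where 78.5% of all protein-coding genes had one. After SNDX-50469, 5 of 10 members still had a peak, against 52.4% of all genes and 66.6% of those on chromosome 19. Some of the control length was kept at 3 of 10, namely LAIR1, LILRA2 and LILRB4, against 55.3% of all genes with control coverage and 65.1% on chromosome 19. Covered length was at least 2-fold lower at 9 of 10 members, with LAIR1 the exception, against 93.7% of all genes and 92.6% on chromosome 19. A count of 9 of 10 is close to these backgrounds. The median kept share was 0% over the members, 2.38% over all genes with control coverage and 6.40% on chromosome 19, and the median control covered lengths were 4171, 5846.5 and 7820 bp.

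**Figure D2:**
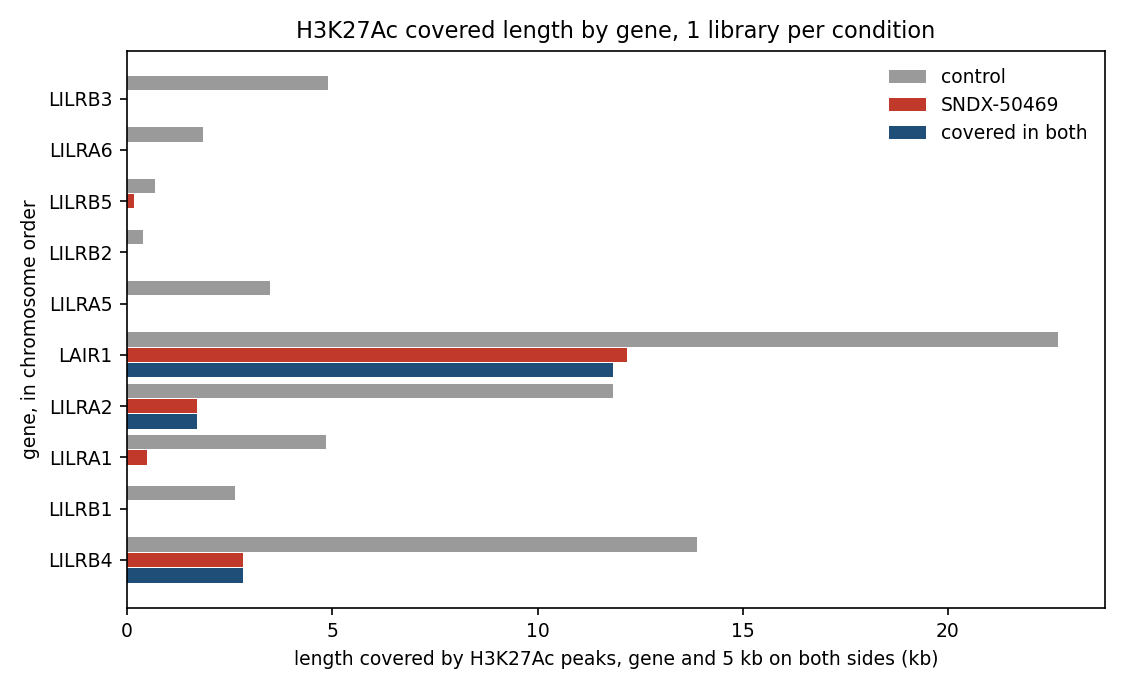
Covered length in kb (x axis) of each member with 5 kb on both sides, in chromosome order (y axis), in control, after SNDX-50469 and in both, with 1 library per condition and no error bar. LAIR1, LILRB4 and LILRA2 have the longest control bars, from 11840 to 22689 bp, and are the 3 members with length covered in both.

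LILRB4 (54662985 to 54668718, plus strand) is an inhibitory receptor of monocytic cells that binds apolipoprotein E. In control it had 4 peaks covering 13898 bp, which was 88.3% of the gene and its flanks. Following SNDX-50469 treatment 3 peaks covered 2813 bp, or 17.9%. All of these 2813 bp had been covered in control, so 20.2% was kept, and 2 of 4 control peaks overlapped a remaining one (50%, Wilson 95% interval 15.0 to 85.0). No SNDX-50469 peak at LILRB4 lay outside the control peaks.

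The widest control peak in the cluster ran over the LILRB4 start, from −9234 to 352 bp relative to the 5′ end, where negative is upstream (54653751 to 54663337, 9587 bp). Its fold over background was 7.96, rank 1098 of the control list, with a −log10 q of 12.2. After treatment a peak of 2610 bp remained inside it, from −2451 to 158 bp relative to the 5′ end (54660534 to 54663143). That peak had a fold of 4.2, rank 6882 of its own list, and a −log10 q of 2.47. The control peak over the first part of the gene (54663665 to 54666756, fold 5.66) was left with a single overlapping peak of 98 bp. The control peak across the 3′ end (54667942 to 54669967, fold 3.62) shared no base with the SNDX-50469 list. Over the gene body alone 4222 bp were covered in control and 257 bp after treatment, a kept share of 6.09%.

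Counted per kb from the 5′ end, the LILRB4 domain was fully covered in control from 9 kb before it up to the 5′ end. After SNDX-50469 the first and second kb before the 5′ end were still fully covered, with 1000 of 1000 bp each. The next kb upstream had 485 bp and the one beyond it 71 bp. No base farther upstream, and none from 1 to 10 kb into and past the gene, was covered. Within 1 kb of the 5′ end LILRB4 kept 75.1% of 1674 bp, against 12.7% of the 12224 bp in the rest of its window. The same split over all 19671 genes with a known strand gave 34.2% and 9.20%.

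**Figure D3:**
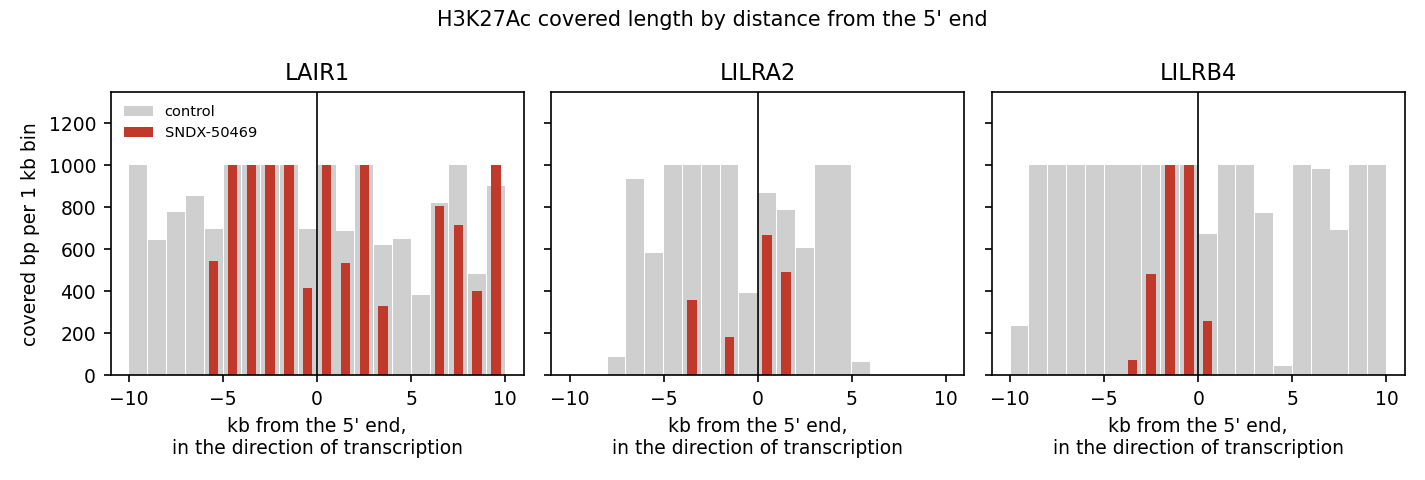
Covered bp in each 1 kb bin (y axis) by distance in kb from the 5′ end (x axis, negative is upstream), for LAIR1, LILRA2 and LILRB4 in control (wide bars) and after SNDX-50469 (narrow bars). At LILRB4 both bins next to the 5′ end on the upstream side stay at 1000 bp, while bins from 4 kb upstream outward fall to 0.

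LAIR1 (54351384 to 54376088, minus strand), which recruits SHP-1 through its ITIM motifs when it binds collagen, had the longest covered length of the members in both libraries. In control 18 peaks covered 22689 bp. After SNDX-50469, 6 peaks covered 12182 bp, and 11838 bp were kept (52.2%). Of the 18 control peaks 6 overlapped a remaining one (33.3%, Wilson 95% interval 16.3 to 56.3). The kept share was above that of 97.6% of all genes with a control peak and of 95.6% on chromosome 19. Among 1083 genes with a similar control covered length, from 18152 to 28351 bp, 98.5% kept less, and their median was 7.05%.

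The control peak with the highest fold at LAIR1 lay inside the gene, 8558 to 9901 bp from its 5′ end (54366187 to 54367530). It had a fold of 17.7, rank 7 among the 245875 control peaks, and a −log10 q of 37.3. A second control peak upstream of the gene (54376554 to 54381735, 5182 bp) had a fold of 14.8 and rank 16. After treatment the highest peak (54368372 to 54369895) had a fold of 8.02, rank 107, and a −log10 q of 9.86. The upstream peak was still 4894 bp long, with a fold of 6.79 and rank 330. Within 1 kb of the 5′ end 83.4% of 1696 bp was kept, and 49.6% of the 20993 bp in the rest of the window. LAIR1 thus differed from LILRB4 most away from this outermost end. For LAIR1 the rest of the window also holds both RefSeq starts given above, 54370558 and 54364931. The split therefore does not part promoters from other positions at LAIR1. The peaks in the 3′ part of the gene, from 14875 bp after the 5′ end on, had control folds of 3.08 to 3.65 and shared no base with the SNDX-50469 list. Stronger control peaks inside the gene shared none either. They began at 54362367 (fold 7.46), 54370706 (fold 6.65) and 54372077 (fold 7.61).

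LILRA2 (54572988 to 54590287, plus strand), an activating receptor that senses cleaved immunoglobulins, was the other member with kept length. Its 10 control peaks covered 11840 bp and its 4 SNDX-50469 peaks 1705 bp, all of it inside control peaks (14.4%). Of the 10 control peaks 3 overlapped a remaining one (30%, Wilson 95% interval 10.8 to 60.3). The highest control peak lay across the 5′ end (54572715 to 54573856), with a fold of 11.5 and rank 100. After treatment a 671 bp peak (54573119 to 54573789, fold 4.42, rank 4305) remained inside it. Within 1 kb of the 5′ end LILRA2 kept 53.1% of 1263 bp, and 9.78% of the 10577 bp in the rest of its window.

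The remaining inhibitory receptors kept no control length. LILRB1 (54616322 to 54638022), a receptor for classical and nonclassical MHC class I, had 7 control peaks over 2628 bp and none after treatment. LILRB2 (54273812 to 54281110), a receptor for MHC class I and angiopoietin-like proteins, had 2 control peaks over 393 bp and none after treatment. LILRB3 (54216278 to 54223007) had 9 control peaks over 4890 bp, of which 934 bp lay in the gene body, and none after treatment. LILRB5 (54249421 to 54257273) had 3 control peaks over 669 bp and 1 peak of 175 bp after treatment, inside the gene at 54250373 to 54250547, where control had none. The highest control folds at these genes were between 3.34 and 3.59, with ranks from 32432 to 52169.

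Among the activating receptors LILRA5 (54307070 to 54313166) had 7 control peaks over 3486 bp and none after treatment. LILRA6 (54236590 to 54242790) had 6 over 1844 bp and none after treatment. LILRA1 (54593632 to 54602381) had 8 over 4856 bp and 1 SNDX-50469 peak of 487 bp downstream of the gene, at a place with no control peak. The LILRA1 window overlaps that of LILRA2, and 2797 bp of control coverage count in both. The LILRA6 and LILRB5 windows share 454 bp of control coverage, including the highest control peak of each.

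Together these 7 genes had 40 control peaks, of which 0 overlapped a SNDX-50469 peak, where 8.24% of all 245875 control peaks did. The 7 were put together because they kept no length. The 0 follows from that choice, so no interval is given and no conclusion is drawn from it. Among genes with a similar control covered length, the share that also kept nothing was between 40.2% for LILRB3 and 98.1% for LILRB2. None of their control peaks reached a −log10 q of 5, and 3 members did, with 9 such peaks at LAIR1, 4 at LILRA2 and 2 at LILRB4. After treatment 1 member did, LAIR1, with 5. The share of all genes with such a peak was not computed, so these counts of members stand without a background. Of the 40, 11 reached a −log10 p of 3.93, the smallest in the SNDX-50469 list. That 0 of these 11 overlapped a SNDX-50469 peak follows from the same choice. Of all control peaks at that level 28.4% did. The other control peaks of these genes had a −log10 p below 3.93. The lists carry no scaling between libraries, so this does not rank their strength against SNDX-50469 peaks. LILRB3 and LILRA6 share much transcript sequence. Of the 50-base words of GENCODE transcripts, 50.8% of those of LILRB3 were also in LILRA6 and 52.8% of those of LILRA6 in LILRB3. Reads from shared parts can be hard to place, so the values of both genes are uncertain. Introns and flanks were not compared in this way. For LILRB1 and LILRB2 the share of words found in any other member was 14.9% and 13.2%. LILRB5, LILRA1 and LILRA5, which kept no length either, shared 7.65%, 4.44% and 1.36%. For LILRB4, LILRA2 and LAIR1 the share of words found in any other member was 3.28%, 3.01% and 0.0115%. Low shares thus occurred both with and without kept length.

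Within 1 kb of the 5′ end, 6 of 10 members had control coverage (59.9% of genes with a strand) and 3 had coverage after treatment (30.3%). LILRB1 had 1183 bp there in control, LILRB2 135 bp and LILRA1 25 bp, and none of it was kept. LILRB3, LILRA6, LILRB5 and LILRA5 had none in either library. Members that were covered at the 5′ end were thus 6 in control and, of these, LAIR1, LILRA2 and LILRB4 after SNDX-50469.

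Set against the other 9 members as a group, LILRB4 kept less. The others had 50044 bp covered in control and kept 13543 bp (27.1%), a difference of −6.82 percentage points for LILRB4. LAIR1 alone supplied 72.4% of the kept length of all members, with 35.5% of their control length, while LILRB4 supplied 17.2% and 21.7%. Without LAIR1 the other 8 members kept 6.23% of 27355 bp, below the share of LILRB4. Without LAIR1 and LILRA2 the other 7 kept 0% of 18312 bp. LAIR1 and LILRA2 are members that kept length, so a lower share of the rest follows from leaving them out. No conclusion is drawn from these 2 values. Set against single genes, LILRB4 differed by −31.9 percentage points from LAIR1 and by 5.84 from LILRA2.

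LILRB4 was thus between LAIR1 and LILRA2, and the order was not the same under each way of counting. By the share of control peaks LILRB4 (50%) stood above LAIR1 (33.3%), on 4 and 18 peaks whose intervals overlap. By the gene body alone LILRB4 (6.09%) stood below LILRA2 (22.2%). Among all genes with a control peak the kept share of LILRB4 was above 81.0%, and above 73.8% on chromosome 19. That of LILRA2 was above 73.8% and 65.4%. Among 1894 genes with a similar control covered length, from 11121 to 17369 bp, 74.4% kept less and the median was 9.28%. For LILRA2 62.0% of 2155 genes covered over 9473 to 14798 bp kept less, with a median of 9.62%.

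**Figure D4:**
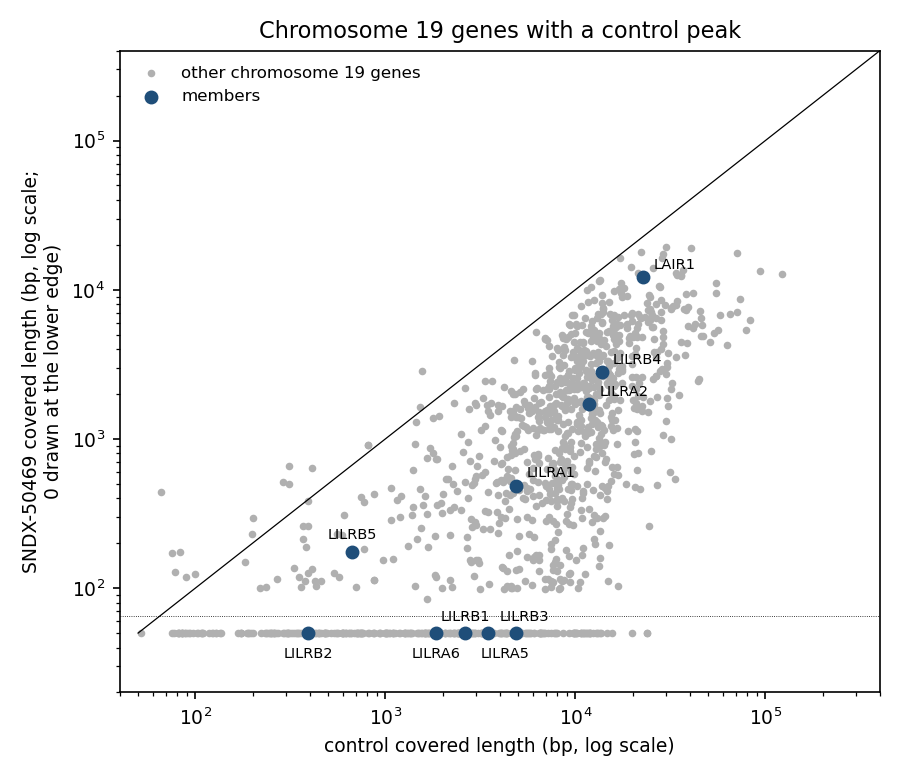
Covered length in control (x axis) and after SNDX-50469 (y axis), in bp on log scales, for chromosome 19 genes with a control peak, where each point is a gene with 5 kb on both sides and the line marks equal length. LAIR1 lies nearest the line among the members, LILRB4 and LILRA2 lie lower within the other genes, and 5 members are at 0 after treatment, drawn at the lower edge.

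Other genes between the members were covered too. LILRA4, a receptor of plasmacytoid dendritic cells that lies next to LAIR1, had 10840 bp in control and 166 bp after treatment (1.53% kept). LENG8 had 12819 and 4894 bp, with 38.1% kept, and LENG9 and CDC42EP5, which share 1 remaining peak, kept 30.4% and 29.8%. TTYH1 and LOC124904770 had 2896 and 1626 bp in control and none after treatment. LAIR2, a soluble relative of LAIR1, had 269 and 115 bp. Of 15 further genes of the leukocyte receptor complex, including LILRA4 and LAIR2, all 15 had a control peak (78.5% of all genes). After treatment 2 had a peak (52.4% of all genes), and the median kept share was 0%. After LILRA4 the longest control coverage was 6905 bp at KIR2DL4, an NK cell receptor, which had none after treatment.

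Of the signalling partners of the ITIM receptors all 4 had a peak in control (78.5% of all genes) and after treatment (52.4%). Covered length was at least 2-fold lower at 3 (93.7% of all genes with a control peak). The median kept share was 23.6%. INPP5D, the phosphatase SHIP1, had 120379 bp in control and 14314 bp after SNDX-50469 (11.9% kept). CSK, a kinase that restrains SRC kinases, had 24888 and 14606 bp (58.7% kept).

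Of 6 partners of ITAM receptors all had a control peak (78.5% of all genes) and 4 had one after treatment (52.4%). Covered length was at least 2-fold lower at 5 (93.7% of all genes with a control peak). The median kept share was 5.63%. LYN, the SRC family kinase that phosphorylates both motif types, had 120414 and 35625 bp (28.8% kept). TYROBP, the adaptor DAP12, kept 86.3% of 13368 bp, whereas FCER1G, the adaptor of the LILRA receptors, had 7854 bp in control and 0 bp after treatment. SYK, the kinase that binds phosphorylated ITAMs, had 36924 and 2348 bp (6.33% kept).

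Of 11 ligand genes 8 had a control peak (78.5% of all genes) and 4 had any peak after treatment (52.4%). The median kept share was 0%. COL1A1, a collagen bound by LAIR1, had 13986 bp in control and 0 bp after. APOE, the apolipoprotein bound by LILRB4, had 9570 and 1167 bp (12.2% kept). B2M, the light chain of MHC class I, had 8430 and 3161 bp (37.5% kept).

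The 11 other ITIM receptors of myeloid cells gave the nearest comparison in kind. All 11 had a control peak (78.5% of all genes) and 8 had one after treatment (52.4%). Covered length was at least 2-fold lower at 10, which is close to the 93.7% of all genes with a control peak. The median kept share was 15.5%. PECAM1, an adhesion receptor, had 60578 and 10696 bp (17.7% kept). SIRPA, the receptor for CD47, had 45712 and 9159 bp (19.7% kept). The 20.2% of LILRB4 was close to both and above the median of the 11, of which only PILRA (20.8%) and SIGLEC9 (25.3%) kept a larger share. The 52.2% of LAIR1 was above each of these 11 genes.

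**Figure D5:**
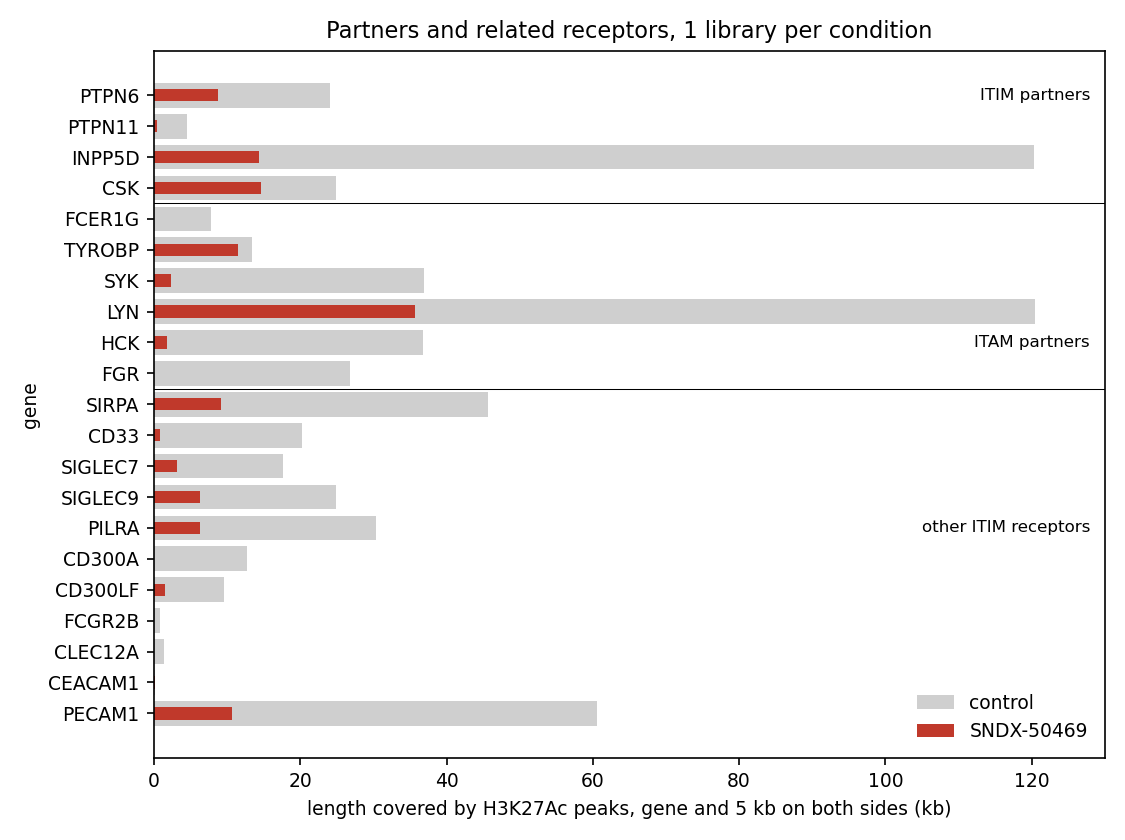
Covered length in kb (x axis) of each gene with 5 kb on both sides (y axis) in control (wide bars) and after SNDX-50469 (narrow bars), for partners of ITIM receptors, partners of ITAM receptors and other ITIM receptors, with 1 library per condition. INPP5D and LYN have the longest control bars, with 120379 and 120414 bp, and FCER1G, FGR, CD300A, FCGR2B and CLEC12A have no bar after treatment.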

How the data were processed

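H3K27Ac ChIPmentation was analysed in 1 control and 1 SNDX-50469 library of MOLM13 cells, and 2 input libraries were not analysed here. Per the submitters' processing notes, Trim Galore 0.6.5, Bowtie2 2.3.4.2, Picard 2.9.0, MACS2 2.1.2 and GRCh38 were used, whereas the supplementary methods name TopHat2 and hg38. The roles of these tools, their options, the use of input and the treatment of reads with several matches are not given in the sources used here, and any of these could change which peaks were called. The authors deposited 1 broad peak list per library. For each peak the authors give a ratio (fold over background), a −log10 p and a −log10 q, and a deposited score derived from the −log10 q, which was not used.

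Gene positions were those of RefSeq GRCh38.p14. A gene was taken with 5 kb on both sides, its covered and kept length were measured in bp, and a control peak was kept when at least 1 bp was shared. The 5′ end is the outermost annotated end. The code was tested on simulated peak lists, in Python 3.11.15 with numpy 2.4.6, biopython 1.88 and matplotlib 3.10.9. Promoter bases came from the RefSeq table, and motifs were searched on both strands. No genome of the files' build and no protein table was used, so no peak sequence, protein comparison or search for ITIM motifs is given.

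All 10 members, the protein-coding genes between them and, of each list of partners, ligands and related receptors, the 2 with the longest control and the 2 with the longest SNDX-50469 coverage were to be named. SIGLEC9, PILRA, FCER1G, FGR, CD300A, FCGR2B, CLEC12A, CD79A, EPCAM, KRT8 and CDH1 were named outside this rule, after their values were seen. A further marker list is not reported here. The members and lists were chosen with earlier results of these data known. With 1 library per condition no test was made. The Wilson 95% intervals express counting error alone, and peaks that lie next to each other may depend on each other. Alternatives varied the gene window, the peak threshold, the depth of the control list and the measure of what was kept.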

Additional observations from a re-analysis of the deposited data

How the results depend on the processing

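The kept share of the whole cluster, 17.0%, became 55.9% within 1 kb of the 5′ ends, 26.8% at a −log10 q of at least 5, 25.9% with a common −log10 p cutoff, 25.0% with the control list trimmed to as many peaks, 5.77% when at least 50% of a control peak had to be covered, and 11.5% as a share of peaks. For LILRB4, 20.2% became 75.1% within 1 kb of the 5′ end, and 0% both at a −log10 q of at least 5 and when 50% of a peak had to be covered. With 20 kb on both sides LILRB4 kept 13.0%, and over the gene body alone 6.09%. The window with 5 kb begins at 54657985, inside the widest control peak (54653751 to 54663337), and leaves out the upstream end of that peak. For the other members together, 27.1% became 17.4% with 20 kb on both sides, 48.5% within 1 kb of the 5′ ends, 47.4% at a −log10 q of at least 5, 40.7% with the common cutoff and with the trimmed list alike, 10.9% when 50% of a peak had to be covered and 14.1% as a share of peaks. The count of members at least 2-fold lower went from 9 of 10 to 3 of 6 within 1 kb of the 5′ ends. At a −log10 q of at least 5 it was 2 of 3. Fewer members have a control peak at these settings. The count with any SNDX-50469 peak went from 5 to 10 with 20 kb on both sides, to 3 within 1 kb of the 5′ ends and to 1 at a −log10 q of at least 5. Within 1 kb the share of all genes with a strand was 30.3%. For the other changed counts no share of all genes was computed, so they are not read against a background. The causes were otherwise not tested.

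LAIR1 kept more than LILRB4 in 8 of 9 alternatives, the exception being the share of peaks. LILRB4 kept more than LILRA2 in 6 of 9, and more than the other members together in 2 of 9, within 1 kb of the 5′ end (75.1% against 48.5%) and by the share of peaks (50% against 14.1%). Over the alternatives the kept share was between 30.2% and 83.4% at LAIR1 and between 0% and 53.1% at LILRA2. The other 7 members stayed at 0% wherever they had a value, except with 20 kb on both sides, where LILRB3 kept 12.9% and LILRA1 5.72%. Several alternatives leave members without a control peak and so without a value. No paired analysis was possible because there was only 1 library of either condition and no test was made.

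The lists give no read depth and admit peaks of different strength, so a weak peak that is missing after treatment cannot be told apart from one below the cutoff. A broad peak gives extent, not amount, of H3K27Ac occupancy.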

Other observations

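Of the 27 SNDX-50469 peaks in the cluster, 7 shared no base with a control peak. Their widths were between 106 and 487 bp and their folds between 3.46 and 4.21, below the fold of 8.02 at LAIR1 in the same list. They lay at LILRB5, between LILRB2 and LILRA5, downstream of LILRA1, and at 4 places between LENG8 and LILRA2. Outside the windows of the 10 members, the 93 control peaks spanned 71581 bp and the 13 peaks after SNDX-50469 spanned 7746 bp. There 9.25% of the control length was kept, against 25.6% inside the windows. LAIR1 alone supplied 72.4% of the kept length inside the windows, and the median kept share of the members was 0%. Without a replicate, none of these differences was tested.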
